A study of Homo sapiens with 36 samples.

Results

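The cytosolic ribosomal protein genes are the 77 genes of the table whose symbol follows the RPL, RPS or RPLP naming pattern or equals RPSA, out of 26475 genes. Of these, 46 encode proteins of the large subunit and 31 proteins of the small subunit. All 77 were tested in every fit described here. Poly-A RNA was sequenced from 36 libraries of 3 human cancer cell lines, in 12 groups of 3 biological replicates. The lines came from a basal-like breast tumour (MDA-MB-468), a carcinoma of the pancreas (PANC-1) and a colorectal tumour (WiDr). Each line carried a lentiviral pGIPZ vector with a non-silencing short hairpin RNA (NS, the control) or 1 of 2 targeting hairpins (sh1, sh2). WiDr cells were also made to express a non-targeting CRISPR guide RNA (NT, the control) or 1 of 2 targeting guides (sg1, sg2). Both targeting constructs of an experiment share its control libraries. The labels do not say whether the infected or edited cells were pools or single clones.

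A cytosolic ribosome is built from ribosomal RNAs and about one copy of each ribosomal protein, so cells make these proteins in matched amounts. Their mRNAs are short and abundant, and in vertebrates they typically start with a C followed by a run of pyrimidines, the terminal oligopyrimidine (TOP) tract. This tract couples their translation to nutrient and growth signals through mTOR and the RNA-binding protein LARP1. Human ribosomal protein genes also have many processed pseudogenes, and the labels do not say how reads were shared between near-identical copies.

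The region around the annotated start is shown for 4 genes that moved in WiDr with hairpins, for RPS12, which rose with both guides, and for RPS16, which stood apart in PANC-1. Each window is 30 bases, 5′ to 3′, from 10 bases before the start to 20 after it, and capitals mark the longest run of C or T. RPS12 and RPS16 were added to this selection after their values were seen.
RPL22 (chr1:6199576-6199605, minus strand): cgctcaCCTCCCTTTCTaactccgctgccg
RPS6 (chr9:19380217-19380246, minus strand): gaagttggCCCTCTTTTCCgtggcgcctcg
RPL3 (chr22:39319604-39319633, minus strand): gccgaccggCCTCTaccggcgggatttgat
RPS27 (chr1:153990752-153990781, plus strand): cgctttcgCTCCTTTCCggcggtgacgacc
RPS12 (chr6:132814559-132814588, plus strand): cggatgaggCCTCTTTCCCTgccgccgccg
RPS16 (chr19:39435930-39435959, minus strand): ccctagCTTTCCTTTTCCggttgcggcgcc
The sequences are from RefSeq, build GRCh38.p14.

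The run was 11 bases long in RPL22, RPS6 and RPS12, 12 in RPS16, 9 in RPS27 and 5 in RPL3. RefSeq start windows were matched for 62 of the 77 genes, with 77 windows in all. A run of at least 8 pyrimidines lay in 72.7% of these windows, against 12.7% of the 35116 windows of all genes, and the median longest run was 10 bases against 4. In the 300-base windows around the start, on either strand, the ETS-type motif CCGGAAG lay in 33.8% of those of ribosomal protein genes and 10.3% of all. The YY1-type motif AAGATGGC lay in 7.79% and 2.89%. The GC box GGGCGG lay in 54.5% and 45% and the TATA box TATAAA in 6.49% and 11.5%. These are matches of letters and not measured binding.

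Library totals ran from 28371127 to 49237322 counts. Ribosomal protein genes took 4.0% to 10.8% of the counts of a library, and the 21 ribosomal RNA genes in the table took 0.838% to 10.2%. In the controls each line carried part of its marker set. KRT5, a basal keratin, was at 1536 to 1817 CPM (counts scaled to a common library size) in MDA-MB-468 and at most 0.0558 elsewhere. KRT14, KRT17 and EGFR were also highest in MDA-MB-468, while GABRP of the same set was at 28.5 to 30.6 there and 48.3 to 117 in WiDr. VIM, a mesenchymal filament, was at 3503 to 4082 in PANC-1, and ZEB1 was also highest there. Of the same set, KRT7 was at 5.69 to 8.18 in PANC-1 and 1135 to 1651 in MDA-MB-468. GATA6 was at 0.052 to 0.105 in PANC-1 and 48.3 to 69.9 in WiDr. KRT18 was at 1900 to 2391 in PANC-1 and overlapped WiDr, at 1796 to 1991. VIL1 was at 52.9 to 72.7 in WiDr, and CDX1, LGALS4 and CEACAM5 were also highest there. CDX2, an intestinal transcription factor, was at 1.48 to 3.17 in WiDr, below its 9.36 to 10.3 in PANC-1. CDH17 was at 0.135 to 0.587 in WiDr and 0.168 to 0.208 in PANC-1. Titles set the guide groups, although for 4 of the 6 libraries with a targeting guide the genotype label names the other guide.

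With the hairpins in MDA-MB-468, 0 of the 77 genes passed the test with sh1 and 0 with sh2. The test was edgeR's quasi-likelihood F test, with p adjusted over all genes and a threshold of 0.05. At an unadjusted p under 0.05 there were 0 and 0, and the DESeq2 Wald test called 0 and 0. Of all genes tested, 1.24% were higher and 1.03% lower with sh1, and 1.69% and 1.80% with sh2. The median log2 fold change was -0.16 with sh1, against -0.01 over all genes, and -0.00 with sh2. The control libraries themselves were spread widely. RPLP0, which encodes a protein of the large-subunit stalk, was at 1705, 1085 and 1267 CPM in the controls, 1258, 1232 and 1290 with sh1, and 1299, 1078 and 1535 with sh2. The first control was the highest of the 9 libraries, and both hairpin groups overlapped the controls. RPS6, a small-subunit protein phosphorylated by the S6 kinases, was at 1332, 848 and 996 in the controls and at 905, 952 and 1031 with sh1. RPL8 was the single gene whose sh1 libraries all lay below the controls (log2 fold change -0.46), where 9.72% of all genes did, and it was named after its value was seen.

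**Figure D1:**
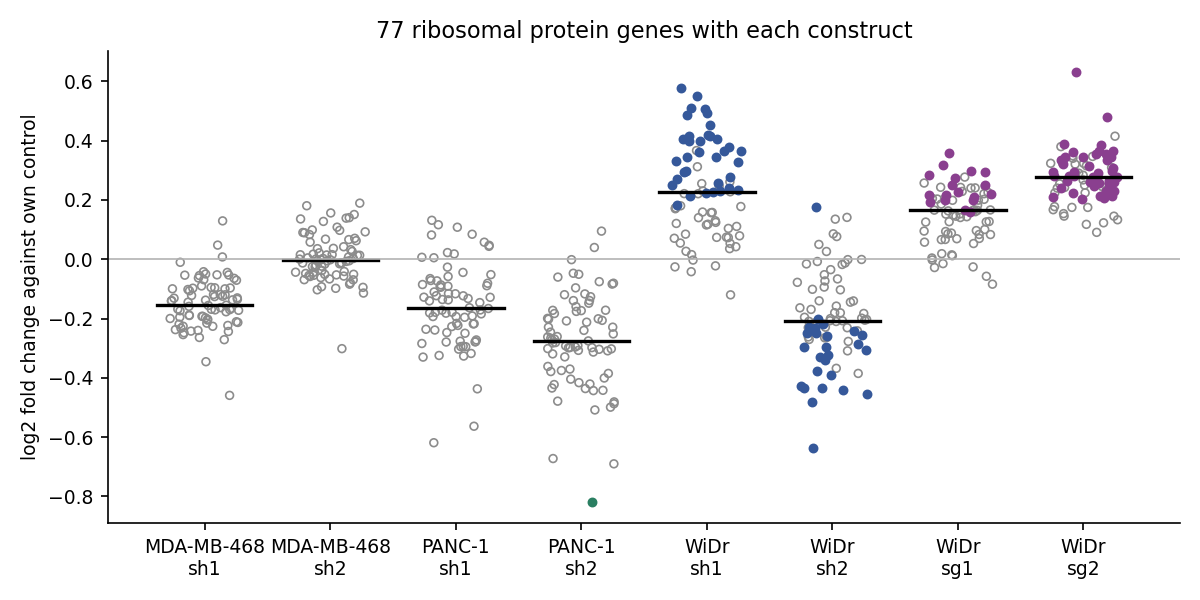
Log2 fold change against the own control (vertical axis) of each of the 77 ribosomal protein genes, for the 8 targeting constructs (horizontal axis). Filled points passed the test at an adjusted p under 0.05, open points did not, and bars are medians. In WiDr 35 points are filled above 0 with sh1 and 25 below 0 with sh2, and both guides lie mostly above 0.

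In PANC-1, 0 of 77 genes passed with sh1 and 1, RPS26, fell with sh2 (edgeR quasi-likelihood test). At an unadjusted p under 0.05 the counts were 1 and 3, and DESeq2 called 1 and 3. Over all genes, 16.2% were higher and 14% lower with sh1, and 16.7% and 16.7% with sh2. The medians of the 77 genes were -0.16 and -0.28, with 65 and 75 of them at negative values. RPS26 is a small-subunit protein at the mRNA exit channel, mutated in some forms of Diamond-Blackfan anaemia. It was at 222, 412 and 414 CPM in the controls, 284, 198 and 199 with sh1, and 198, 207 and 189 with sh2. All sh2 libraries lay below all controls, and the first control was closest to them. The log2 fold change was -0.62 (SE 0.233, edgeR adjusted p = 0.0727) with sh1 and -0.82 (SE 0.234, adjusted p = 0.0251) with sh2. The second call was lost when any control other than replicate 1, or any sh2 library, was left out (-0.69 to -0.86).

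The number of calls in PANC-1 depended on single libraries, most of all on 1 control. In control replicate 1 the median of the 77 genes lay -0.59 below the control mean on the log2 scale, with 0 of 77 genes above it. The other controls lay at 0.25 and 0.33, with all 77 genes above it in each. Without that library 46 genes fell with sh1 and 64 with sh2, with medians of -0.40 and -0.53. The share of all genes called without it was not counted, so these counts cannot be set beside all genes. On the same scale the sh1 libraries were unequal, at 0.22, -0.28 and -0.29. RPLP0 was at 1530 CPM in control replicate 1 and at 2328 and 2569 in the others, against 2579, 1973 and 1956 with sh1 and 1996, 2068 and 1947 with sh2. RPL5 and RPL11, which with the 5S rRNA form a particle of the large subunit, had the same order among the controls. RPL5 was at 392, 636 and 640 CPM there and at 420, 450 and 480 with sh2. RPL11 was at 515, 916 and 856 there and at 694, 751 and 716 with sh2. Both genes thus have sh2 libraries between control replicate 1 and the other controls. RPS27, whose zinc-finger protein sits in the small subunit, was at 277, 565 and 547 in the controls and 372, 413 and 400 with sh2. RPSA, a platform protein of the small subunit related to a laminin receptor, was at 645, 1010 and 1077 in the controls and 741, 769 and 697 with sh2.

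In WiDr with hairpins, most genes that passed were higher with sh1 and lower with sh2. With sh1, 35 of 77 passed, all of them higher, where 24.1% of all genes were higher and 23.9% lower. The 35 of 77 are 45.5%. With sh2, 1 was higher and 25 were lower, where 22.2% of all genes were higher and 22.5% lower. The medians were 0.23 and -0.21, and both subunits moved alike (0.18 and 0.25 for large and small with sh1, -0.22 and -0.21 with sh2). Compared directly, a contrast added after the data were seen, 68 of 77 genes were lower with sh2 than with sh1 and none higher, at a median of -0.42. Of all genes, 20.6% were higher and 21.8% lower in that contrast. In groups that did not overlap, 27 genes lay above the controls with sh1, and 3 lay above and 47 below with sh2. Of all genes tested, 27.1% lay above with sh1, and 29.1% above and 29.4% below with sh2. The 3 were RPL22, RPL3 and RPL6.

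RPL22, an RNA-binding large-subunit protein, had the largest rise and was the one gene that also rose with sh2. It was at 550, 562 and 569 CPM in the controls, 938, 802 and 769 with sh1, and 611, 652 and 634 with sh2. All libraries of both hairpins lay above the controls, and all sh1 libraries above the sh2 libraries. The log2 fold changes were 0.58 (SE 0.0655, edgeR adjusted p = 2.96e-06) and 0.18 (SE 0.0654, adjusted p = 0.0387). The rise with sh2 did not pass when any control or any sh2 library was left out (0.15 to 0.20), nor with scaling by library totals (0.09). RPL3, which shapes the peptidyl transferase region, was at 1421, 1543 and 1495 in the controls, 2334, 2073 and 1942 with sh1, and 1619, 1623 and 1655 with sh2. Its log2 fold change was 0.51 (SE 0.0668, adjusted p = 1.31e-05) with sh1 and 0.14 (adjusted p = 0.111) with sh2. Again both hairpin groups lay above the controls.

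RPS6 passed in both directions. It was at 1465, 1566 and 1535 CPM in the controls, 2664, 2105 and 1927 with sh1, and 1253, 1283 and 1289 with sh2. The groups did not overlap, and the log2 fold change was 0.55 (SE 0.0909, edgeR adjusted p = 0.000177) with sh1 and -0.26 (SE 0.0908, adjusted p = 0.0336) with sh2. The fall with sh2 did not pass when any control or sh2 library was left out (-0.24 to -0.28). RPS27 had the largest fall with sh2. Its controls were at 681, 778 and 752, its sh1 libraries at 881, 716 and 655, and its sh2 libraries at 450, 511 and 460. With sh1 it overlapped the controls (log2 fold change 0.03, adjusted p = 0.838), and with sh2 it lay below them (-0.64, SE 0.0959, adjusted p = 0.000177).

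RPL36A and RPL37, both small large-subunit proteins, followed RPS27 among the falls with sh2. RPL36A was at 595, 686 and 665 CPM in the controls and at 460, 478 and 456 with sh2, and RPL37 at 802, 958 and 932 and at 638, 709 and 618. Neither sh2 group overlapped its controls, and the log2 fold changes were -0.48 and -0.45 (edgeR adjusted p = 0.0132 and 0.0205). Both calls were lost without a filter on low counts (-0.48 and -0.45). The RPL37 call was lost without control replicate 2 or 3 or sh2 replicate 1 or 3. Of the 5S particle, RPL5 had a log2 fold change of 0.42 and RPL11 of 0.36 with sh1 (adjusted p = 0.000369 and 0.001), and 0.03 and -0.10 with sh2 (adjusted p = 0.81 and 0.285). RPSA rose with sh1 (0.30, adjusted p = 0.00484) and was at -0.07 with sh2 (adjusted p = 0.468). RPLP0 was at 0.04 and -0.18 (adjusted p = 0.69 and 0.0786). RPS27A, made as a fusion with ubiquitin, was at 0.37 and -0.21 (adjusted p = 0.0648 and 0.277), with sh1 replicate 1 at 1432 CPM above the other sh1 libraries at 995 and 917.

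The counts in WiDr with hairpins depended on single libraries. As single libraries were left out, 20 to 51 genes were higher and 0 to 6 lower with sh1. Without control replicate 1, 20 genes rose with sh1, at a median of 0.17. Without control replicate 2 or 3, or sh2 replicate 1 or 3, the count of calls with sh2 fell to 9, 11, 10 and 12. Without sh1 replicate 1 or 3, which are in the joint fit but not in the groups compared, it rose to 58 and 42. The sh1 libraries were unequal, at medians of 0.46, 0.16 and 0.02 above the control mean, and the sh2 libraries were alike, at -0.25, -0.17 and -0.23. Ribosomal RNA genes took 5.38% to 10.2% of counts with sh2, 1.59% to 2.71% in the controls and 1.27% to 2.56% with sh1. Leaving those genes out before scaling changed no count in this experiment by over 1.5 times.

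**Figure D2:**
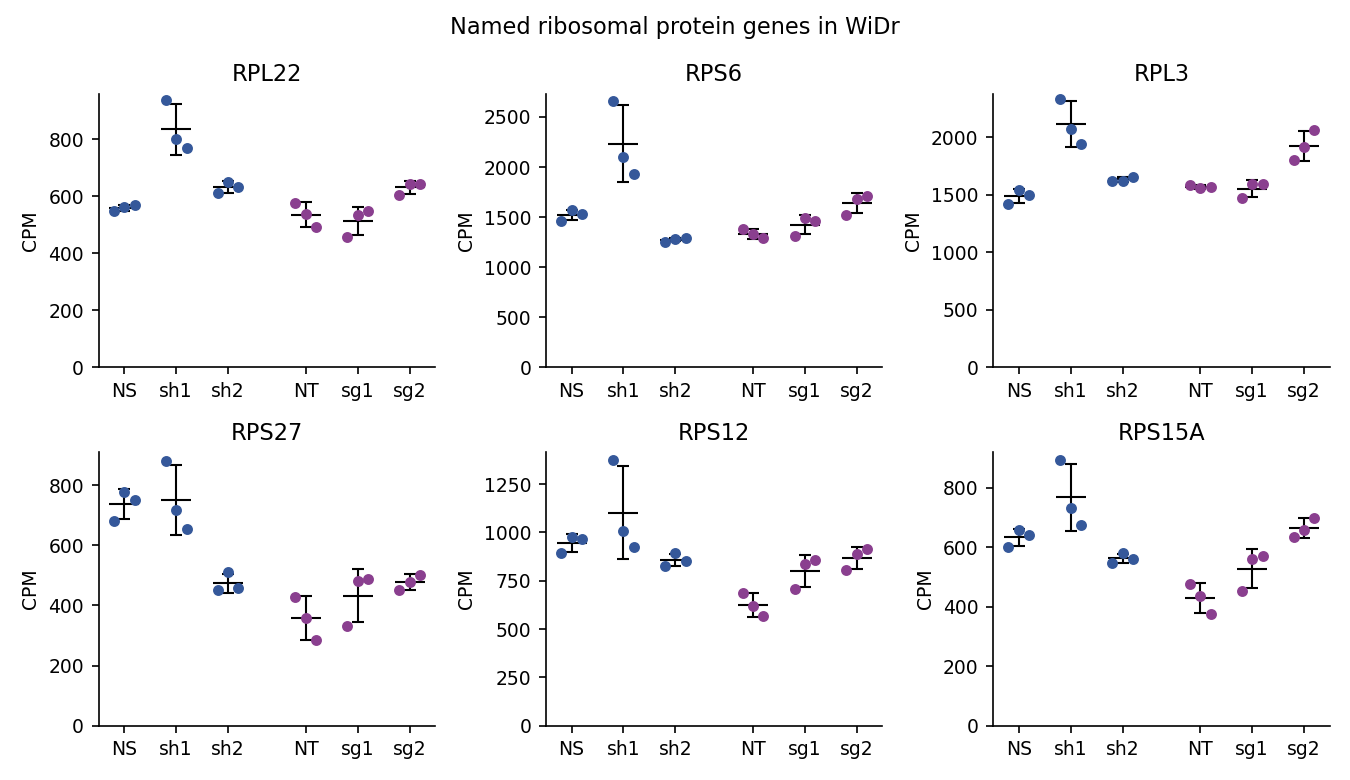
CPM (vertical axes, from 0) of 6 ribosomal protein genes in the 18 WiDr libraries, by group (horizontal axes). Points are libraries, with the mean and SD of 3. RPL22 at 769 to 938 with sh1 lies above its controls at 550 to 569, and RPS27 at 450 to 511 with sh2 lies below its controls at 681 to 778.

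With the guides in WiDr, 18 of the 77 genes passed with sg1 and 42 with sg2, all of them higher than with the non-targeting control. The other 59 and 35 did not pass. Of all genes, 21.4% were higher and 20.3% lower with sg1, and 14.1% and 11.3% with sg2. The 18 of 77 with sg1 are 23.4%, near the share of all genes that were higher. The medians were 0.16 and 0.28. With sg2 all 77 genes had positive values and 55 lay above the controls without overlap, against 9 with sg1, where 22.3% and 28.2% of all genes did. Grouped by the genotype field instead of the title, 5 and 0 genes passed, at medians of 0.21 and 0.27. In that grouping 4.83% of all genes were higher and 4.03% lower with sg1, and 0.517% and 0.314% with sg2. Compared directly, a contrast also added later, 13 genes were higher with sg2 than with sg1, where 17.4% of all genes were higher and 17.1% lower, at a median of 0.12.

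RPS12, a small-subunit protein, ranked first among the genes that passed with both guides, by the smaller of the 2 log2 fold changes. It was at 688, 617 and 565 CPM in the controls, 705, 836 and 858 with sg1, and 806, 886 and 914 with sg2. Both guide groups lay above the controls, and sg1 replicate 1 was the lowest guide library. The log2 fold changes were 0.36 (SE 0.0839, edgeR adjusted p = 0.00395) and 0.48 (SE 0.084, adjusted p = 0.00133). RPS15A, a small-subunit protein, was at 477, 434 and 376 in the controls, 451, 560 and 570 with sg1, and 635, 658 and 699 with sg2. Its sg1 libraries overlapped the controls through replicate 1 and its sg2 libraries did not, with log2 fold changes of 0.30 and 0.63 (adjusted p = 0.0371 and 0.00144). RPL27, a large-subunit protein, was at 481, 439 and 402 in the controls, 460, 563 and 596 with sg1 and 509, 544 and 600 with sg2 (0.29 and 0.32, adjusted p = 0.0392 and 0.0401). The sg1 calls of RPS15A and RPL27 were lost without control replicate 2 or 3, sg1 replicate 2 or 3, or sg2 replicate 2 or 3 (0.21 to 0.31), and the sg2 call of RPL27 without control replicate 2 or 3, sg1 replicate 2, or sg2 replicate 2 or 3. The calls of RPS12 held in each of these. The sg2 call of RPS12 was lost when guides were grouped by the genotype field.

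Among the other named members, RPLP0 was at 1923, 1938 and 1968 CPM in the controls, 2156, 2263 and 2278 with sg1, and 2213, 2301 and 2491 with sg2. Neither guide group overlapped the controls (log2 fold change 0.20 and 0.26, edgeR adjusted p = 0.00557 and 0.00161). RPL5 was at 0.16 and 0.36 (adjusted p = 0.0358 and 0.000268) and RPS27A at 0.23 and 0.39 (adjusted p = 0.0168 and 0.00102). RPSA, RPS6 and RPL22 passed with sg2, at 0.26, 0.30 and 0.24 (adjusted p = 0.00155, 0.00167 and 0.0204). With sg1 these genes were at 0.13, 0.09 and -0.06 (adjusted p = 0.0587, 0.223 and 0.544). RPL11 and RPS27 passed with neither guide. RPS27 was at 430, 359 and 284 in the controls, 331, 482 and 487 with sg1 and 450, 477 and 503 with sg2 (0.28 and 0.42, adjusted p = 0.321 and 0.184). Grouped by the genotype field, all sg2 calls named here were lost. Over both guides, 13 values of the named members no longer passed in that grouping, and 9 kept their side of the threshold.

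The guide counts also depended on single libraries. In sg1 replicate 1 the median of the 77 genes was -0.05, and in the other sg1 libraries 0.24 and 0.27. Without it 42 genes rose with sg1 and 7 differed between the guides, at medians of 0.26 and 0.01. Without control replicate 2 or 3, sg1 replicate 2 or 3, or sg2 replicate 3, the sg1 count was 7, 5, 5, 5 and 11. The sg2 count was 23, 24 and 21 without control replicate 2, control replicate 3 or sg2 replicate 3, and all genes that passed were higher. Scaling by library totals alone gave 3 calls with sg1, with the median of all genes at -0.09.

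Whether an effect differed from one experiment to the next was tested by an interaction term, on the mean of both constructs. In WiDr with hairpins that mean joins constructs with medians of opposite sign (0.23 and -0.21), so it describes neither hairpin alone. Between PANC-1 and MDA-MB-468, 0 of 77 genes differed (edgeR quasi-likelihood test), with 1 at an unadjusted p under 0.05 and 0 by DESeq2. Of all genes, 11.7% had a higher and 12.1% a lower effect in PANC-1. The effect in WiDr hairpins was higher than in MDA-MB-468 for 1 gene, RPL22 (difference 0.48, SE 0.149, adjusted p = 0.0350), where 8.96% of all genes were higher and 9.27% lower. That call was lost with scaling by library totals (0.39), without a filter on low counts (0.43), and when most single libraries were left out (down to 0.29 without MDA-MB-468 control replicate 1). Against PANC-1 the effect was higher for 2 genes, where 16.2% of all genes were higher and 20.9% lower. They were RPL6 (0.59, SE 0.171, adjusted p = 0.0118) and RPS26 (0.67, SE 0.227, adjusted p = 0.0294). The RPS26 call was lost with library totals (0.52) and without PANC-1 control replicate 2 or 3 or WiDr control replicate 1 or 3. The count was 34 without PANC-1 control replicate 1 and 10 without PANC-1 sh1 replicate 1.

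Guides and hairpins in WiDr have separate controls, and 16 of the 77 genes had different effects, 13 higher and 3 lower with guides. Of all genes, 22.0% were higher and 19.6% lower. RPL10, a late-joining large-subunit protein chosen here after its value was seen, had the smallest p (difference 0.53, SE 0.0875, edgeR adjusted p = 4.26e-05). It was at 2801, 3196 and 3016 CPM in the hairpin controls, 3102, 2697 and 2494 with sh1, and 2278, 2334 and 2260 with sh2. With guides it was at 1844, 1796 and 1779 in the controls, 2072, 2302 and 2387 with sg1, and 1983, 2070 and 2300 with sg2. It thus lay below or within its controls with hairpins and above them with guides. RPS27 differed by 0.65 and RPLP0 by 0.30. RPL22, RPL3 and RPL6 differed the other way, by -0.29, -0.19 and -0.22. The count was 37 without sh1 replicate 1, 27 without sg1 replicate 1 and 8 without NT replicate 3.

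The level of the 77 genes in a library was set beside the balance of short and long genes outside the set. This balance is the median log2 level of other genes with coding sequences under 600 bases minus that of genes with over 3000, both against the control mean and at 10 CPM or more. It was computed after the data were seen, over 1071 to 1128 short and 1326 to 1358 long genes. Ribosomal protein genes have a median coding length of 456 bases, against 1245 over all genes. In MDA-MB-468 controls the balance was 0.55, -0.48 and -0.06 where the medians of the 77 genes were 0.40, -0.31 and -0.09. In PANC-1 controls it was -0.74, 0.41 and 0.32 beside -0.59, 0.25 and 0.33. In WiDr it was 0.36, 0.00 and -0.10 with sh1, -0.30, -0.18 and -0.27 with sh2, 0.03, 0.26 and 0.29 with sg1, and 0.10, 0.29 and 0.39 with sg2. The highest and lowest libraries of each WiDr hairpin group in the balance were also the highest and lowest in the 77 genes.

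**Figure D3:**
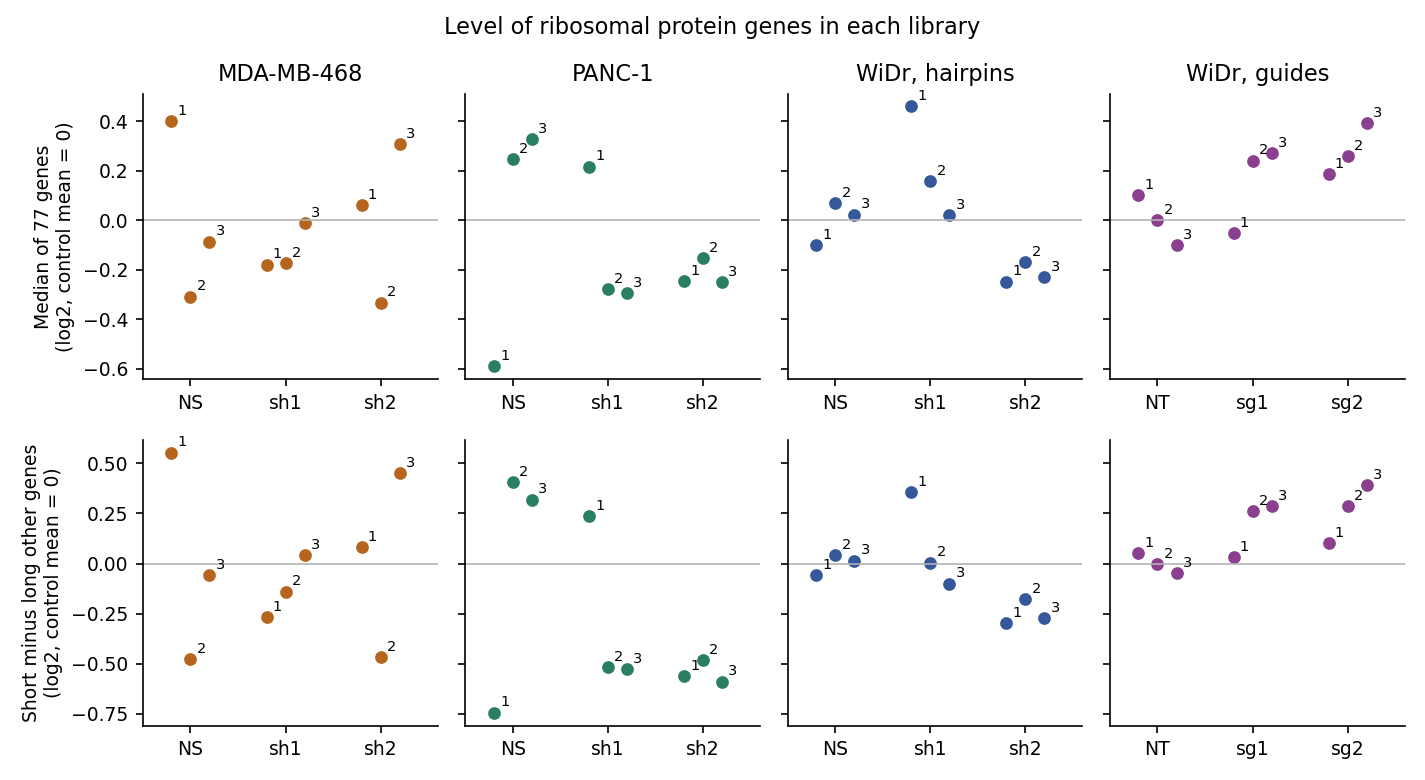
Upper row, median log2 level of the 77 ribosomal protein genes in each library against the mean of the own controls. Lower row, balance of short and long genes outside the set on the same scale. Columns are experiments, horizontal positions are groups and small numbers are replicates. PANC-1 control replicate 1 is lowest in both rows (-0.59 and -0.74).

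Offsets fitted per library on coding length and GC content were another alternative added after seeing the data. The medians in PANC-1 became 0.02 and 0.01, with 2 genes higher and 2 lower for each hairpin. In WiDr they kept their signs and shrank. With sh1, 45 genes were higher and 4 lower at a median of 0.18, and with sh2, 6 were higher and 29 lower at -0.11. The direct contrast of sh2 with sh1 kept 62 lower and 0 higher genes at -0.27. With sg1, 19 were higher and 3 lower at 0.07, and with sg2, 39 higher and 0 lower at 0.16. The shares of all genes called in the fits with offsets were not counted, so these counts cannot be set beside all genes. Within the 77 genes, Spearman's rho of the log2 fold change with coding length was 0.47 with sh2 and 0.29 with sh1, -0.39 with sg1 and -0.28 with sg2. These are descriptions over 77 genes that share their libraries.

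The controls of the lines were compared in a fit of the 12 control libraries. Most ribosomal protein genes that passed were lower in the other lines than in the WiDr hairpin control, and 31 of 77 passed above both lines there. The share of all genes above both lines in WiDr was not counted, and the shares below are for 1 line at a time. MDA-MB-468 was higher than WiDr for 2 genes and lower for 46, at a median of -0.66, where 38% of all genes were higher and 36.8% lower. PANC-1 was higher than WiDr for 1 gene and lower for 39, at -0.49, where 38.6% were higher and 36.5% lower. MDA-MB-468 was higher than PANC-1 for 13 genes and lower for 15, at -0.09, where 36.0% were higher and 36.5% lower. With the coding length and GC offsets that last split became 13 and 30, and without a filter on low counts 9 and 18. With scaling by library totals it was 16 and 13, at a median of 0.02 where that of all genes was 0.07. Without PANC-1 control replicate 1 the count was 45. The large subunit stood lower than the small one against WiDr, with medians of -0.90 and -0.52 in MDA-MB-468 and -0.62 and -0.34 in PANC-1. In bulk RNA, fewer cells with a transcript and less of it per cell cannot be told apart.

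RPL23 and RPL34, both large-subunit proteins, were the genes most above the other lines in WiDr. RPL23 was at 1492, 1623 and 1628 CPM in WiDr hairpin controls, 538, 324 and 386 in MDA-MB-468, and 234, 439 and 423 in PANC-1. RPL34 was at 530, 578 and 571 in WiDr, 175, 109 and 124 in MDA-MB-468, and 112, 221 and 237 in PANC-1. WiDr overlapped neither line, with log2 fold changes of MDA-MB-468 and PANC-1 against it of -1.93 and -2.12 for RPL23 and -2.04 and -1.56 for RPL34 (edgeR adjusted p at most 0.000141). RPS6 and RPL13A, the latter also known from an interferon-controlled translation repressor complex, were lowest in PANC-1. RPS6 was at 277, 464 and 475 in PANC-1, 1274, 829 and 980 in MDA-MB-468, and 1511, 1617 and 1584 in WiDr. RPL13A was at 398, 651 and 799, against 1855, 1178 and 1279 and 2780, 3224 and 3065. The 3 lines did not overlap for either gene, and RPL13A in PANC-1 was -2.29 below WiDr and MDA-MB-468 1.22 above PANC-1.

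In MDA-MB-468, RPS7 was above both other lines and RPLP2 and RPL27A were below both. RPLP2, a partner of RPLP0 in the stalk, was at 405, 247 and 284 CPM there, 508, 888 and 1005 in PANC-1, and 877, 1020 and 970 in WiDr. Its 3 libraries lay below all others, with log2 fold changes of -1.36 and -1.62 (edgeR adjusted p = 0.000278 and 7.01e-05). RPL27A, at 537, 337 and 394, was -1.07 and -1.63 against PANC-1 and WiDr. RPS7, a small-subunit protein, was at 1295, 783 and 904, against 399, 668 and 674 in PANC-1 and 640, 727 and 705 in WiDr. Its MDA-MB-468 libraries lay above all of these, with log2 fold changes of 0.78 and 0.53 (edgeR adjusted p = 0.00536 and 0.0376). The call against WiDr was lost with the coding length offsets (0.27), without MDA-MB-468 replicate 1 (0.29), without any WiDr hairpin control (0.47 to 0.54), and without PANC-1 replicate 2 (0.50) or guide control 2 (0.52).

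**Figure D4:**
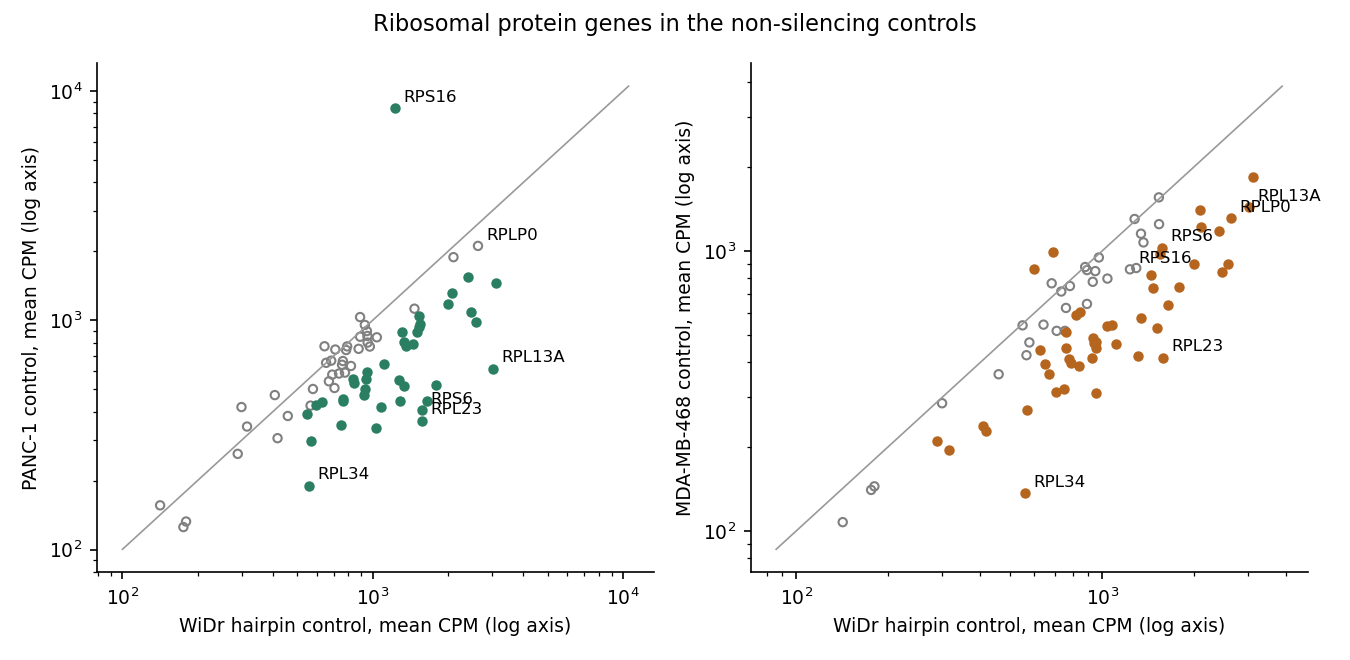
Mean CPM of the 77 genes in the PANC-1 control (left) and the MDA-MB-468 control (right) on the vertical axes against the WiDr hairpin control on the horizontal axes, all log axes. The line marks equal levels, and filled points passed the test. RPS16 at 8418 CPM in PANC-1 lies above the line and most other points below it.

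RPS16, a small-subunit protein whose tail reaches the transfer RNA in the P site, was the one gene above both other lines in PANC-1. It was at 5175, 9230 and 10850 CPM in the PANC-1 controls, 1124, 688 and 766 in MDA-MB-468, and 1101, 1326 and 1269 in WiDr. Every PANC-1 library lay above all libraries of the other lines. MDA-MB-468 was -3.29 below PANC-1 (SE 0.269, edgeR adjusted p = 3.64e-07), and PANC-1 was 2.77 above WiDr (SE 0.263, adjusted p = 1.29e-06). RPS16 made up 13.0% to 15.2% of all ribosomal protein counts in the 9 PANC-1 libraries and 1.31% to 1.74% in the other 27 libraries. The shares of control and hairpin libraries of PANC-1 overlapped.

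The genes beside RPS16 on chromosome 19 were looked at because of that value. Of 20 other genes tested within 500 kb, 17 were above both MDA-MB-468 and WiDr in PANC-1 and 0 below both, where 22.6% of the 16344 genes tested were above both. Their median log2 fold changes were 3.32 and 3.46. PAF1, a subunit of an RNA polymerase II elongation complex, was at 1559 ± 117 CPM in PANC-1 (SD, n = 3) and 113 ± 10.9 in MDA-MB-468. SUPT5H, another elongation factor, was at 1682 ± 232 and 216 ± 14.3. TIMM50, of the mitochondrial import machinery, was at 1273 ± 242 and 120 ± 16.8. FBL, the methyltransferase that modifies ribosomal RNA, was at 3879 ± 930 and 406 ± 63.6. Each of these 4 passed against both lines. The 3 others were NCCRP1, with a log2 fold change of -4.02 against MDA-MB-468, FCGBP, at -0.00 against it, and IFNL1, at a mean of 0.131 CPM in PANC-1 and -0.60 against WiDr (edgeR adjusted p = 0.27). Gene copy number was not measured in these libraries.

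**Figure D5:**
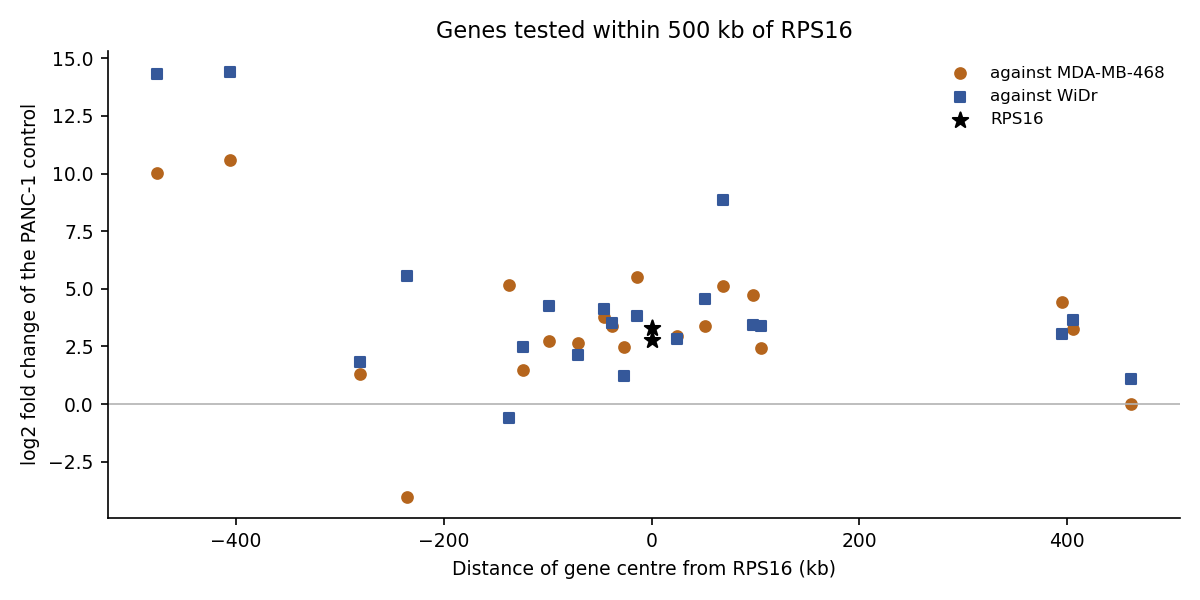
Log2 fold change of the PANC-1 control (vertical axis) against MDA-MB-468 (circles) and WiDr (squares) for the 20 other genes tested within 500 kb of RPS16, by distance of the gene centre from it in kb (horizontal axis). Stars mark RPS16, at 3.29 and 2.77. Both fold changes were positive for 17 genes.

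The hairpin control and the guide control of WiDr also differed. With the guide control 0 of 77 genes were higher and 20 lower, at a median of -0.50, where 13.6% of all genes were higher and 12.8% lower. All guide controls lay below all hairpin controls for 70 of the 77 genes and for 30.1% of all genes, although 20 of the 77 passed the test. RPS27 was at 702, 803 and 776 CPM in the hairpin controls and 430, 358 and 283 in the guide controls (log2 fold change -1.09, SE 0.264, edgeR adjusted p = 0.0103). RPL22 overlapped between them (-0.11, adjusted p = 0.704). The log2 fold change was closely ordered by coding length (Spearman's rho 0.70 over 77 genes), and the balance of short and long genes in the guide controls was -0.24, -0.31 and -0.37 against the hairpin controls. The count ran from 1 to 56 as single libraries were left out. It was 56 without PANC-1 control replicate 1 and 39 and 12 without MDA-MB-468 replicate 1 or 3. It was 4, 3 and 3 without hairpin control 1, 2 or 3, and 9, 2 and 1 without guide control 1, 2 or 3. With the coding length offsets 48 genes were lower, at -0.35. Construct and preparation cannot be told apart here.

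Paralogs of ribosomal proteins were looked at beside them. With sh1 in WiDr 3 of the 5 tested passed higher and 1 lower, where 24.1% of all genes were higher and 23.9% lower. RPL39L was at 0 or 1 counts in each of the 18 WiDr libraries, at 343 to 572 in MDA-MB-468 and at 632 to 1175 in PANC-1. RPL22L1, the paralog of RPL22, fell with sh2 in WiDr while RPL22 rose. It was at 68.1, 64.8 and 69.8 CPM in the controls, 70.9, 53.2 and 49.7 with sh1, and 35.5, 43.5 and 35.7 with sh2. The sh2 libraries were the lowest, with a log2 fold change of -0.81 (edgeR adjusted p = 0.000434). RPL22L1 also fell with sh2 in PANC-1 (-0.97, adjusted p = 0.0227) and rose with sg1 (0.27, adjusted p = 0.0121). RPS27L, the paralog of RPS27, was at 14.1, 13.4 and 14.9 in the WiDr hairpin controls and 30.3, 24.7 and 23.9 with sh1. It rose with sh1 (0.89, adjusted p = 3.66e-06), where RPS27 did not pass, and fell with sg1 (-0.37, adjusted p = 0.0151). Grouped by the genotype field, 0 of the 5 paralogs tested passed with either guide, so the sg1 calls of RPL22L1 and RPS27L were lost. RPL26L1 and RPL36AL rose with sh1 (0.48 and 0.40, adjusted p = 0.00063 and 0.00375), and RPL7L1 fell (-0.21, adjusted p = 0.00323). FAU, which encodes a ribosomal protein fused to a ubiquitin-like protein and lies outside the name pattern, passed with no construct in WiDr (-0.18 and -0.20 with sh1 and sh2, adjusted p = 0.281 and 0.243). In MDA-MB-468 none of the 6 paralogs tested passed by edgeR.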

How the data were processed

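The authors deposited expected counts per gene. The submitters' processing notes name Bowtie2 2.1.0, RSEM 1.2.15 and the build hg38, with the gene annotation and the strand setting not given in the sources used. They were rounded to whole counts and tested with edgeR 4.0.16 in R 4.3.3 (filterByExpr, TMM, robust quasi-likelihood fit), 1 fit per experiment of 9 libraries, 1 of the 12 controls, and fits of 18 libraries for interactions. P values were adjusted by Benjamini-Hochberg over all genes, with a threshold of 0.05. Standard errors were taken as the absolute log2 fold change over the root of F. CPM were scaled by TMM within each fit, so levels of one library differ slightly between fits. Coordinates and lengths are from GENCODE 29. The code was tested on simulated data.

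Members, lists and the naming rule were chosen with earlier results of these data known. The rule named RPLP0, RPSA, RPL5, RPL11, RPS6, RPL22, RPS27 and RPS27A, the 3 largest rises and falls per experiment, the 2 genes most above and below the other lines per control, and all paralogs that passed the filter. From lists of RNA polymerase I transcription, ribosome biogenesis, TOP translation factors and TOP regulators it named the 2 largest rises and falls passing with both constructs. Genes that passed with both constructs were ranked by the smaller of the 2 absolute log2 fold changes. Exceptions are marked in the text. Alternatives were DESeq2 1.42.0, other scalings, no filter, a replicate block, length and GC offsets, removal of ribosomal RNA genes and of single libraries, and the other guide label. Values of the gene that the constructs target, and of some genes that the rule names, are not reported here.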

Additional observations from a re-analysis of the deposited data

Results flagged for a closer look

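Effects that differed between experiments by an interaction test in edgeR are given here, each as the mean of both constructs against their own control. Between WiDr with hairpins and MDA-MB-468, 1 of the 77 ribosomal protein genes differed, RPL22, by 0.48 on the log2 scale, where 8.96% of all genes were higher and 9.27% lower. Between WiDr with hairpins and PANC-1, 2 differed, RPL6 by 0.59 and RPS26 by 0.67, where 16.2% of all genes were higher and 20.9% lower. Between guides and hairpins in WiDr, 16 differed, among them RPS27 by 0.65, RPLP0 by 0.30 and RPL22 by -0.29. The 16 were 13 higher and 3 lower with guides, and are 20.8% of the 77 with both directions together. Of all genes, 22.0% were higher and a further 19.6% lower, so in this fit the 77 genes differed less often than all genes. The count of 16 ran from 8 to 37 as single libraries were left out, where the share of all genes was not counted. The groups hold 3 samples each, so single samples were not tested for standing apart.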

How the results depend on the processing

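The named genes gave 1903 values that kept direction and side of the threshold under the alternatives, 149 that no longer passed, 52 that newly passed and 0 that reversed. Counts of ribosomal protein genes changed by over 1.5 times as follows. With length and GC offsets they were 2 and 3 in MDA-MB-468 (sh1, sh2), 4 and 5 in PANC-1, 22 between the guides, 47 for MDA-MB-468 against PANC-1 and 42 for the guide against the hairpin control. With coding length and GC offsets, chosen after seeing the data, they were 2 and 1, 4 and 4, 24, 43 and 48. DESeq2 called 1 and 3 in PANC-1 and 5 for WiDr hairpins against PANC-1. With library totals they were 54 for WiDr sh2, 3 for sg1, 0 for WiDr hairpins against MDA-MB-468 and 1 against PANC-1, with shifts of the median of all genes of up to 0.13 within an experiment (PANC-1 sh2) and -0.19 between experiments. Without a filter on low counts they were 13 for the guide against the hairpin control and 0 for WiDr hairpins against MDA-MB-468. By the genotype field they were 5 for sg1, 0 for sg2 and 0 between guides. No count changed by over 1.5 times with RLE size factors or without ribosomal RNA genes. Apart from the genotype field, the shares of all genes called under these alternatives were not counted. Except where stated in the report, the cause was not tested.

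Leaving out 1 library at a time gave 0 to 0 calls for both hairpins in MDA-MB-468, 0 to 46 and 0 to 64 for sh1 and sh2 in PANC-1, 20 to 51, 9 to 58 and 57 to 77 for sh1, sh2 and their contrast in WiDr, and 5 to 42, 21 to 53 and 7 to 19 for sg1, sg2 and theirs. The controls gave 20 to 45 (MDA-MB-468 against PANC-1), 37 to 60 (MDA-MB-468 against WiDr), 32 to 42 (PANC-1 against WiDr) and 1 to 56 (guide against hairpin control). The interactions gave 0 to 3 (PANC-1 against MDA-MB-468), 0 to 2 and 1 to 34 (WiDr hairpins against MDA-MB-468 and PANC-1), and 8 to 37 (guides against hairpins). The shares of all genes called with a library left out were not counted.

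Replicate numbers were not used as pairs in the main tests, since the labels do not say that they mark a shared batch. Deviations from the group means correlated, for same-numbered libraries, at -0.36 to 0.84 in MDA-MB-468, -0.85 to 0.33 in PANC-1, -0.20 to 0.06 in WiDr with hairpins, -0.14 to 0.31 with guides and -0.71 to 0.21 in the controls. For libraries with other numbers the ranges were -0.82 to 0.79, -0.57 to 0.73, -0.20 to 0.23, -0.24 to 0.14 and -0.62 to 0.76, in that order. With 3 libraries per group, these overlapping ranges cannot settle whether the numbers pair libraries. With the number as a block, 0 genes passed with sh2 in PANC-1, and 4 differed between the guide and hairpin controls. The other counts with the block stayed within 1.5 times, such as 30 for sh1 and 23 for sh2 in WiDr.

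P values measure the spread between these cultures of 1 line. The part of the balance of short and long genes in the shifts of ribosomal protein genes was not tested beyond the offsets.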

Other observations

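Other genes of ribosome production fell in PANC-1 with both hairpins. Of 36 ribosome biogenesis genes, 27 fell with sh1 and 29 with sh2, at medians of -0.55 and -0.56, and 0 rose. Of 15 genes of RNA polymerase I transcription, 9 fell with each hairpin, at a median of -0.43 for both. Over all genes, 14% and 16.7% fell. Ribosomal RNA genes took 4.61% to 9.60% of counts in the controls, 0.838% to 2.6% with sh1 and 1.22% to 1.80% with sh2, and their part in these values was not tested. NOP58, a core protein of box C/D small nucleolar particles, was at 180, 257 and 258 CPM in the controls, 147, 117 and 124 with sh1, and 115, 119 and 133 with sh2. NOP16 had log2 fold changes of -0.88 and -1.0, and the polymerase subunits POLR1C and CD3EAP lay between -0.78 and -0.81 with both hairpins. In each of these genes both hairpin groups lay below all controls. EIF4EBP1, a repressor of cap-dependent translation, rose by 0.66 with each hairpin, and EIF4B by 0.24 and 0.30. FBL, which lies near RPS16, was at -0.13 and -0.31 (edgeR adjusted p = 0.686 and 0.261). In MDA-MB-468, 1 and 2 of the 36 biogenesis genes rose with sh1 and sh2, where 1.24% and 1.69% of all genes did. RIOK2 passed with both hairpins (0.39 and 0.59).

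In WiDr with hairpins, 11 of 16 TOP-mRNA translation factor genes rose and 0 fell with sh1, and 6 rose and 2 fell with sh2, at medians of 0.31 and 0.09. Of all genes, 24.1% rose and 23.9% fell with sh1, and 22.2% and 22.5% with sh2. HNRNPA1 was at 927, 960 and 968 CPM in the controls, 1868, 1681 and 1640 with sh1, and 1542, 1504 and 1537 with sh2. EIF3F rose by 0.33 and 0.36. Of the biogenesis genes 12 rose and 4 fell with sh1, and 2 rose and 13 fell with sh2. NPM1, a nucleolar chaperone, rose by 0.67 and 0.22 and LTV1 by 0.31 and 0.16, while RRS1 was at -0.23 and -0.46 and NOP2 at -0.21 and -0.36. TAF1A of polymerase I initiation rose by 0.37 and 0.22. Among the TOP regulators LARP1B rose by 0.35 and 0.64 and the kinase gene RPS6KB2 was at -0.44 and -0.23.

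With guides in WiDr, 17 biogenesis genes rose and 1 fell with sg1, and 18 rose and 0 fell with sg2, of 36. Of all genes, 21.4% rose and 20.3% fell with sg1, and 14.1% and 11.3% with sg2. SBDS, which frees the large subunit for joining, was at 93.8, 93.5 and 87.9 CPM in the controls, 142, 153 and 146 with sg1, and 112, 124 and 114 with sg2, and RPF2 rose by 0.34 and 0.43. Of the 16 translation factors 5 rose and 2 fell with sg1, and 10 rose and 0 fell with sg2. TPT1 rose by 0.49 and 0.41 and EEF1B2 by 0.37 and 0.41. TAF1D rose by 0.34 and 0.28, POLR1D by 0.23 and 0.31, and LARP1B by 0.74 and 0.30. MLST8, an mTOR complex subunit, was at -0.28 and -0.22, and EIF4EBP2 at -0.18 and -0.19. All 9 of these named genes passed with both guides as grouped by title. Grouped by the genotype field, 7 passed with sg1 and 0 with sg2, and of the biogenesis genes 7 and 0 rose, where 4.83% and 0.517% of all genes did.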
